A study of Mus musculus with 6 samples.

Results

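The genes described here are 33 genes of protein folding, quality control and export in the endoplasmic reticulum (ER), with the unfolded protein response that regulates many of them. They were found by matching a fixed list of symbols to the deposited table, where all 33 of 33 were present among 23420 genes and all 33 had enough reads to be tested. The cells were mouse embryonic fibroblasts of mixed 129/Sv-C57BL/6 strain. Cells of both groups carried E1A, an adenoviral oncogene, and HrasG12V, an activated Ras, so that the comparison is between transformed cells and says nothing of untransformed fibroblasts. One group received the guide sgNTC, which targets no gene and leaves p53 wild-type. The other received a guide against p53, named sgp53(1); it is labelled p53 null in lines 1 and 3 and functionally inactive in line 2. Each of 3 lines gave 1 library per group, 6 in all, from cells kept for 24 h at 5% oxygen and 5% CO2; neither the age of the embryos nor the clonality of the lines is given. Because the matrix genes of these cells differ strongly between the groups, the question asked of the ER genes was whether those that fold and export secreted proteins differ along with the collagens.

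The ER is where secreted and membrane proteins fold. Chaperones such as BiP (Hspa5) and GRP94 (Hsp90b1) bind unfolded chains, calnexin and calreticulin hold glycoproteins, and protein disulfide isomerases form their disulfide bonds. Proteins that fail to fold are returned to the cytosol for degradation, and those that fold leave in COPII-coated vesicles. When unfolded proteins accumulate, 3 sensors (IRE1, PERK and ATF6, encoded by Ern1, Eif2ak3 and Atf6) raise the transcription of chaperone genes, in part through the ER stress response element (ERSE), which NF-Y and ATF6 bind. Procollagen is a large client of this system in fibroblasts and needs dedicated helpers, among them Fkbp10, Crtap, Ppib and the chaperone Serpinh1.

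Library totals lay between 27503577 and 35860866 counts. Trp53 RNA was lower in the sgp53 library of each line (CPM, counts per 1000000, of 206, 277 and 253 without the p53 guide and of 71.1, 72.0 and 113 with it, lines 1 to 3; log2 fold change -1.52), an RNA check that does not measure protein. The sgp53 library of line 3 stood apart in Rn45s, a precursor of ribosomal RNA, at 3338 CPM where the others had 636 to 864. It also stood apart in the fibroblast markers Thy1 and Pdgfra and in the collagen Col6a3, at 53.9, 131 and 501 CPM. The others had at most 4.30, 29.7 and 13.9 CPM of these genes. The fibroblast marker Vim was at 2500.3 to 3353 CPM in the 6 libraries, and 9 fibroblast markers, 3 of them collagens, summed to 5660 to 6740 CPM in sgNTC and 7274 to 10048 CPM in sgp53, with none at 0. The summed level of 7 epithelial markers, of which Krt5 had no count, moved with the group, at 259 to 646 CPM in sgNTC and 88.7 to 132 CPM in sgp53, mostly Krt18. The blood markers Cd3e and Tyrobp had no count in any library, and the summed level of the blood markers was 7.45 to 10.4 CPM in sgNTC and 3.65 to 3.94 CPM in sgp53, nearly all Cd68. The summed level of 4 endothelial markers was at most 2.64 CPM, and that of 4 skeletal muscle markers at most 2.22 CPM. The part of these differences, and of Rn45s, in the ER genes was not tested. In bulk samples fewer cells of a type and less RNA per cell cannot be told apart.

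The promoters of many of the chaperone genes carried the ERSE, which is background for their choice and not a result of the counts. It was searched as CCAAT and CCACG separated by 9 bases, on both strands, in the window from 250 bases before to 50 bases after each RefSeq start (build GRCm38.p6, the assembly of mm10). Windows were given for 28 of the 33 members; 8 of the 28 (28.6%) held the element, against 37 of 27025 genes (0.137%) in the whole promoter table. The 8 members were Hspa5, Hsp90b1 (with 2 matches), Calr, Canx, Pdia6, Dnajc3, Creld2 and Syvn1. These stretches are shown because the results below compare members with and without the element; the capitals mark the 19 bases of each match, which reads in reverse complement for Calr, Creld2 and the second match of Hsp90b1.
Hspa5, chr2:34772003-34772065, + strand: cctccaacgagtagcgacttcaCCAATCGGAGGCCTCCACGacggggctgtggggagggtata
Hsp90b1, chr10:86705616-86705678, - strand: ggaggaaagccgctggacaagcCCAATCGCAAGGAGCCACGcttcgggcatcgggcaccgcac
Hsp90b1, chr10:86705511-86705573, - strand: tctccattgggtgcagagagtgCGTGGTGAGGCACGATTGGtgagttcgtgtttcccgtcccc
Calr, chr8:84847053-84847115, - strand: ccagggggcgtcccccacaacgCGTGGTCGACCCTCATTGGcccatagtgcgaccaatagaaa
Canx, chr11:50325778-50325840, - strand: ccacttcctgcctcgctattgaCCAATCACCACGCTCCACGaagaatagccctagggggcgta
Pdia6, chr12:17266469-17266531, + strand: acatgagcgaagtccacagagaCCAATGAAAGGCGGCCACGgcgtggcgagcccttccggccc
Dnajc3, chr14:118937805-118937867, + strand: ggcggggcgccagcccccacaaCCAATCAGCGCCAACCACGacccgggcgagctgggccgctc
Creld2, chr15:88819498-88819560, + strand: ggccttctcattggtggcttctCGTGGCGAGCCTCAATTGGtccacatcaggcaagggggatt
Syvn1, chr19:6046510-6046572, + strand: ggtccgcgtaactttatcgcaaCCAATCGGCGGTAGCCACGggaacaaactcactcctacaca

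A further 3 elements of the same response were searched in the same way. ERSE-II, ATTGG and CCACG with 1 base between them, was found in 2 of 28 members (7.14%; 0.0444% of all genes in the promoter table), Herpud1 and Dnajb11. In Herpud1, whose product recruits the degradation machinery, it began 52 bases before the start (chr8:94386355-94386409, + strand, capitals mark the element).
Herpud1: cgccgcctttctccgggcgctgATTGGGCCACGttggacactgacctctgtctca
The core of the XBP1 and ATF6 element, TGACGTG, was in 5 of 28 members (17.9%; 2.22% of all genes), namely Hspa5, Kdelr3, Mia3, Sec23a and Sec24d. The core of the ATF4 element, TGATGCAA, was in 1 of 28 (3.57%; 1.03% of all genes), Herpud1. A match is a description of the letters in the window, not of binding.

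Few of the 33 genes differed between sgp53 and sgNTC, and those that passed the test changed by less than 1.5-fold. At an edgeR adjusted p under 0.05, over 13044 tested genes, Pdia5 and Fkbp10 were higher and Sec24d was lower. This is 3 of 33, against 6.45% of all tested genes called in either direction (2.76% higher and 3.69% lower), so the share of ER genes called was near the background. Without adjustment 12 of 33 had a p under 0.05, 8 higher and 4 lower, against 29.0% of all tested genes. The median log2 fold change of the 33 was 0.06, that of all tested genes -0.01; 21 of the 33 fold changes were positive and 12 negative. With the line as a block, which pairs the 2 libraries of each line, edgeR called 0 of the 33, against 2.38% of all tested genes. Without sgNTC line 1 edgeR called 2 of the 33 and 700 genes in all. It called 1 without sgp53 line 2 (374 genes in all) or sgp53 line 3 (342 in all). Without sgp53 line 1, sgNTC line 2 or sgNTC line 3 it called 0 of the 33. The calls over all genes were then 146, 293 and 133, against 841 with all libraries. DESeq2 called 9 of 33 (18.1% of all genes) and limma-voom called 3 (5.35% of all genes).

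The size of the differences was bounded in each gene taken singly, not jointly for the set. In all 33 genes the 95% interval of the fold change, taken gene by gene from the edgeR fit, lay inside a 2-fold change in either direction; the same held for 76.1% of all tested genes. The highest upper bound was 0.80 on the log2 scale, in Kdelr3, and the lowest lower bound was -0.82, in Sdf2l1. The plot of fold changes with their intervals sets this beside the collagen chains. Of 22 collagen chain genes, 8 were higher in sgp53 and 0 lower (2.76% and 3.69% of all tested genes). The list's median was 1.36 on the log2 scale. The count of 8 was 3 without sgp53 line 1, sgNTC line 2 or sgNTC line 3, where 146, 293 and 133 of all genes were called. It was 7 or 8 without another library, where 342 to 700 of all genes were called. In 1 of the 22, Col4a5, the interval lay inside a 2-fold change.

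**Figure D1:**
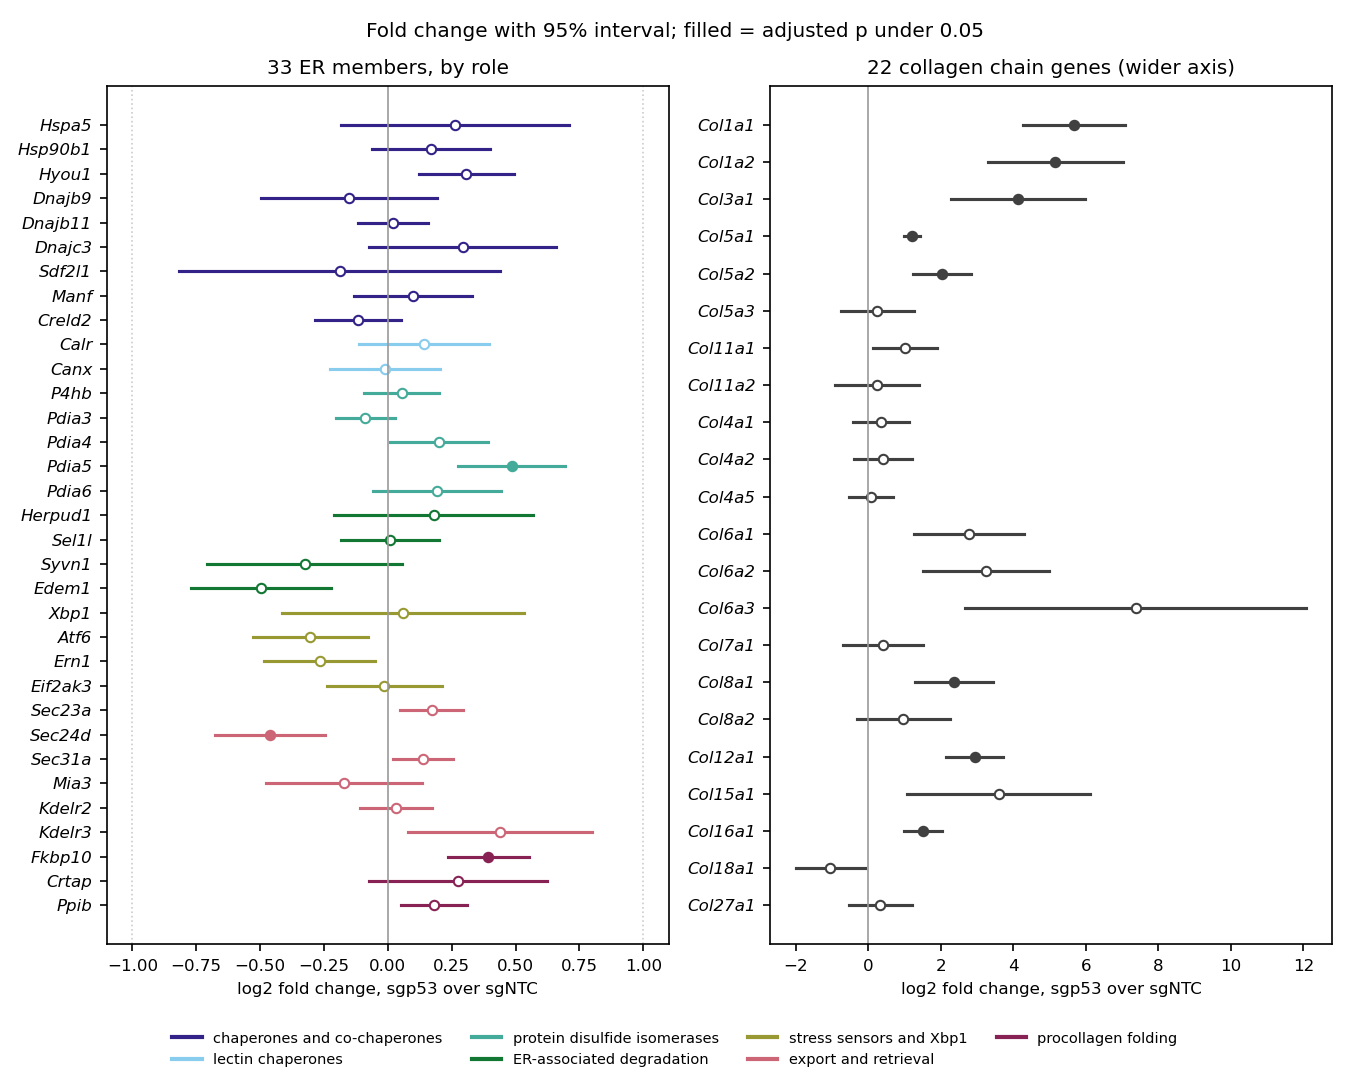
Log2 fold change of sgp53 over sgNTC (x axis) with its 95% interval for the 33 ER genes, coloured by role (left), and for 22 collagen chain genes on a wider axis (right); 3 libraries per group, filled circles have an edgeR adjusted p under 0.05 and dotted lines on the left mark a 2-fold change. The ER intervals all lie between the dotted lines, from -0.82 to 0.80, while the point estimates of the collagens reach 7.37, in Col6a3, which was not called.

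Among the 9 chaperones and co-chaperones edgeR called 0 (1 at an unadjusted p under 0.05; DESeq2 1, limma-voom 0). Hspa5 (chromosome 2, 34772090 to 34776529) encodes BiP, the main Hsp70 of the ER lumen. In lines 1, 2 and 3 it stood at 904, 854 and 1059.8 CPM in sgNTC and at 1155, 1386 and 837 CPM in sgp53. The groups overlapped, since sgp53 line 3 was the lowest of all 6 libraries and sgp53 lines 1 and 2 were the 2 highest. The log2 fold change was 0.26 (SE 0.19, edgeR adjusted p = 0.391). Hsp90b1, which encodes the Hsp90 of the ER, had 1025, 987 and 1087 CPM in sgNTC and 1157, 1305 and 1022 CPM in sgp53, with the same overlap through line 3. Hyou1, a large Hsp70-like chaperone that exchanges BiP's nucleotide, was the 1 chaperone with an unadjusted p under 0.05 and the 1 called by DESeq2. It had 339, 314 and 349.7 CPM in sgNTC and 445, 417 and 378 CPM in sgp53, so the groups did not overlap (log2 fold change 0.31, SE 0.08, edgeR adjusted p = 0.0652). Non-overlap was common in these data, at 36.8% of all tested genes; among the 33 it was seen in 14, of which 8 were higher and 6 lower.

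The smaller co-chaperones spread in both directions. Sdf2l1, a partner of ER Hsp40 proteins, had 25.8, 22.8 and 32.0 CPM in sgNTC and 23.6, 31.4 and 15.6 CPM in sgp53. Its sgp53 line 3 value was the lowest and its sgNTC line 3 value the highest of the 6 (log2 fold change -0.19, SE 0.26). The remaining members of the group were Dnajc3, Manf, Dnajb11, Creld2 and Dnajb9, with log2 fold changes of 0.29, 0.10, 0.02, -0.12 and -0.15. Dnajb9 and Dnajb11 encode Hsp40 partners of BiP, and Dnajc3 a further one, while Manf and Creld2 encode secreted stress-induced proteins.

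Calreticulin and calnexin, the lectin chaperones, had small differences; edgeR, DESeq2 and limma-voom called 0 of the 2, with 0 at an unadjusted p under 0.05. As edgeR called 6.45% of all tested genes, 0 of 2 is near the background. Calr had 902, 861 and 999 CPM in sgNTC and 1060.2, 1112 and 873 CPM in sgp53 (log2 fold change 0.14, 95% interval -0.11 to 0.40). Canx had 638, 632 and 665 CPM in sgNTC and 652, 708 and 561 CPM in sgp53 (log2 fold change -0.01, 95% interval -0.23 to 0.21). In both genes the sgp53 libraries of lines 1 and 2 were above, and that of line 3 below, their own sgNTC library.

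Of the 5 protein disulfide isomerases, Pdia5 (chromosome 16, 35397308 to 35490919) rose. In lines 1, 2 and 3 it stood at 19.7, 22.2 and 20.3 CPM in sgNTC and at 29.5, 27.3 and 30.2 CPM in sgp53. The lowest sgp53 library was above the highest sgNTC library, and the fold change was 1.40 (log2 0.48, SE 0.09, edgeR adjusted p = 0.0306; 0.0891 with the line as a block). The Pdia5 call was lost without any 1 of the 6 libraries (adjusted p 0.0547 to 0.122; 0.0002 to 0.225 over all 14 alternatives). Pdia4 and Pdia6 had log2 fold changes of 0.20 and 0.19 (edgeR adjusted p = 0.161 and 0.271), P4hb, which is also the beta subunit of collagen prolyl 4-hydroxylase, 0.05, and Pdia3, which works with calnexin and calreticulin, -0.09. Pdia6 was highest in sgp53 line 2, at 376 CPM, with 271 to 319 CPM in the remaining 5 libraries.

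**Figure D2:**
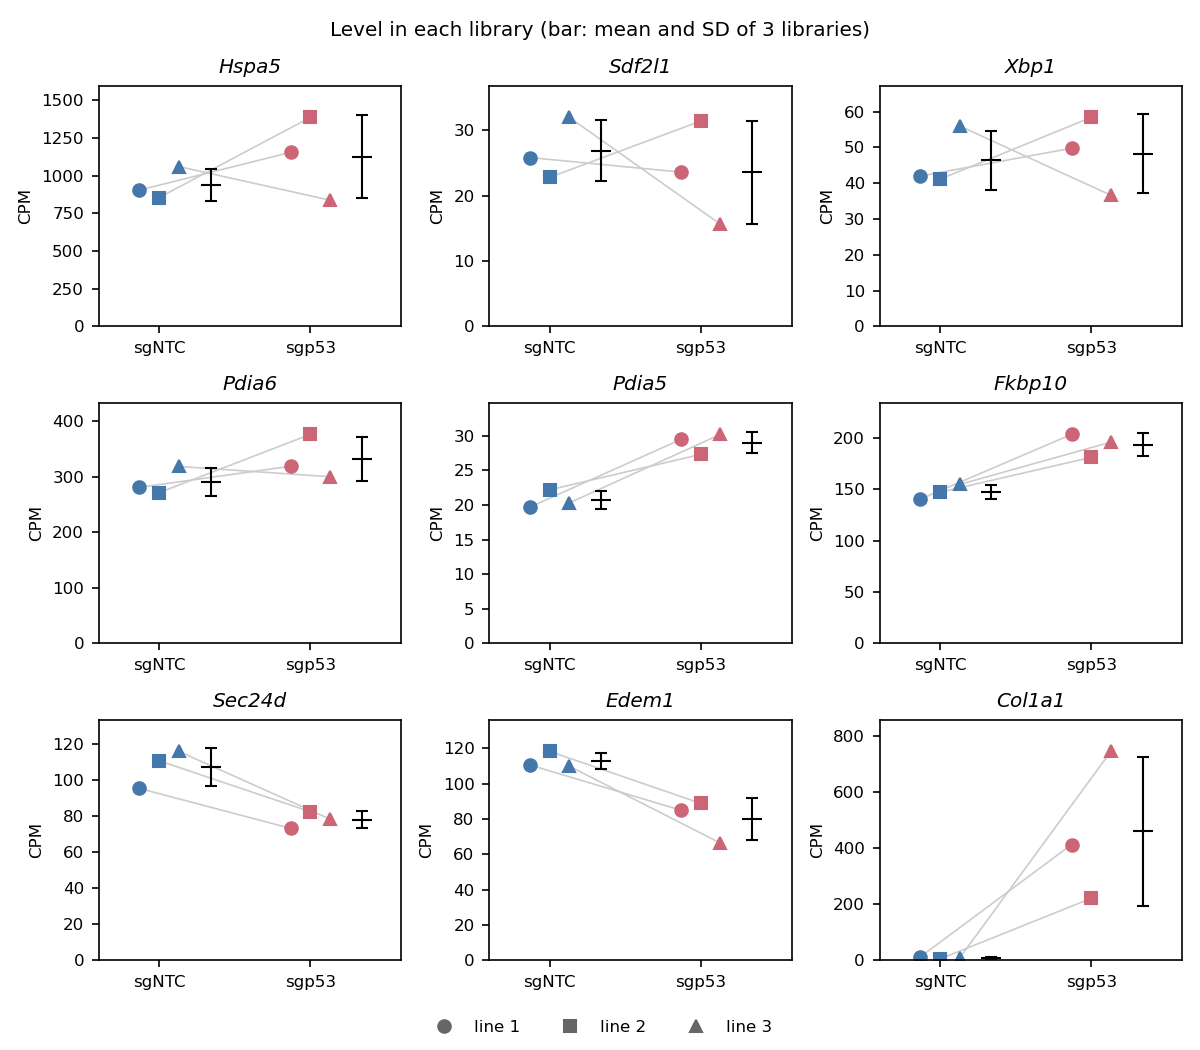
Level in CPM (y axis, from 0) of 8 ER genes and Col1a1 in each library, by group (x axis); symbols mark the 3 lines, grey lines join the 2 libraries of a line, and black bars give the mean and SD of 3 libraries. Pdia5, Fkbp10, Sec24d and Edem1 keep 1 direction in the 3 lines, while Hspa5, Xbp1 and Pdia6 are higher in sgp53 in lines 1 and 2 and lower in line 3.

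Of 4 genes of ER-associated degradation edgeR called 0 (1 at an unadjusted p under 0.05; DESeq2 1, limma-voom 0). Against 6.45% of all tested genes called by edgeR, 29.0% at an unadjusted p under 0.05 and 18.1% called by DESeq2, these counts are near the background. Edem1, a mannosidase-like protein that hands misfolded glycoproteins to degradation, came nearest to an edgeR call. It had 111, 118 and 109.9 CPM in sgNTC and 84.9, 88.8 and 66.3 CPM in sgp53, with no overlap (log2 fold change -0.50, SE 0.11, edgeR adjusted p = 0.0553). Syvn1, the ubiquitin ligase of the pathway, had 160, 110.4 and 124 CPM in sgNTC and 107, 118 and 90.5 CPM in sgp53. Its sgp53 line 2 library lay within the range of sgNTC, and its log2 fold change was -0.33 (SE 0.16, edgeR adjusted p = 0.23). The ligase partner Sel1l was at 0.01 and Herpud1 at 0.18 on the same scale.

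Of the 3 sensors and Xbp1 edgeR also called 0 (2 at an unadjusted p under 0.05; DESeq2 1, limma-voom 0). The log2 fold change was -0.30 for Atf6 (SE 0.09, edgeR adjusted p = 0.0963), -0.27 for Ern1 (SE 0.09, edgeR adjusted p = 0.117) and -0.01 for Eif2ak3 (SE 0.09, edgeR adjusted p = 0.942). In Atf6 and Ern1 the groups did not overlap and sgp53 was the lower. Xbp1 encodes the transcription factor whose RNA IRE1 splices; counts per gene do not show that splicing. It had 42.0, 41.1 and 56.0 CPM in sgNTC and 49.8, 58.4 and 36.6 CPM in sgp53, a log2 fold change of 0.06 (95% interval -0.42 to 0.53). As with Hspa5, sgp53 line 3 was the lowest library. These are RNA levels and do not measure the activity of the sensors.

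Of 6 export genes edgeR called 1, against 6.45% of all tested genes. An unadjusted p under 0.05 was seen in 4 (3 higher and 1 lower), against 29.0% of all tested genes. DESeq2 called 3 (18.1% of all tested genes) and limma-voom 1 (5.35%). Sec24d (chromosome 3, 123264801 to 123365641), a cargo adaptor of the COPII coat, fell. Lines 1, 2 and 3 had 95.2, 111 and 116 CPM in sgNTC and 73.1, 82.4 and 78.3 CPM in sgp53, without overlap. The fold change was 0.727 (log2 -0.46, SE 0.09, edgeR adjusted p = 0.0379; 0.0524 with the line as a block). The Sec24d call was kept without sgNTC line 1 (adjusted p = 0.0263) and lost without any 1 other library (0.068 to 0.124; 0.000317 to 0.229 over all 14 alternatives). The other coat genes had small positive values: Sec23a, its partner in the inner coat, was at 0.17 (SE 0.05, edgeR adjusted p = 0.0905) and Sec31a, of the outer coat, at 0.14 (SE 0.05, edgeR adjusted p = 0.129). In both Sec23a and Sec31a the groups did not overlap, and DESeq2 called both. Mia3, also called TANGO1, which loads procollagen into these vesicles, had a log2 fold change of -0.17 (95% interval -0.48 to 0.14). Its value was higher in sgp53 in line 1 and lower in lines 2 and 3.

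Of the KDEL receptors, which return escaped ER proteins from the Golgi, neither passed the test. Kdelr2 had 127, 143 and 137 CPM in sgNTC and 141, 139 and 137 CPM in sgp53 (log2 fold change 0.03, 95% interval -0.11 to 0.17). Kdelr3 had 10.5, 12.6 and 14.2 CPM in sgNTC and 16.6, 15.2 and 18.7 CPM in sgp53, without overlap (log2 fold change 0.44, SE 0.15, edgeR adjusted p = 0.118). Kdelr3 overlaps Ddx17 in the annotation, and how reads in the shared stretch were counted is unknown here.

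The 3 procollagen helpers all had positive fold changes, and Fkbp10 rose. Fkbp10 (chromosome 11, 100415694 to 100424840) encodes FKBP65, a prolyl isomerase that assists type I procollagen. Lines 1, 2 and 3 had 140.4, 147 and 155 CPM in sgNTC and 204, 181 and 196 CPM in sgp53. The groups did not overlap, and the fold change was 1.31 (log2 0.39, SE 0.07, edgeR adjusted p = 0.027; 0.0731 with the line as a block). The Fkbp10 call was kept without sgp53 line 2 (adjusted p = 0.0415) and lost without any 1 other library (0.0534 to 0.0977; 1.11e-05 to 0.168 over all 14 alternatives). Fkbp10 overlaps Nt5c3b in the annotation, with the same limit as for Kdelr3. Ppib, the cyclophilin of the prolyl 3-hydroxylase complex, was at 122, 116 and 119 CPM in sgNTC and 131, 132 and 142 CPM in sgp53 (log2 fold change 0.18, SE 0.05, edgeR adjusted p = 0.0921). Crtap, of the same complex, was at 0.27 (SE 0.15, edgeR adjusted p = 0.261), with a within-line value of 0.68 in line 3 and -0.09 in line 2.

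Some collagens changed by large factors and others had values as small as those of the ER genes. Col1a1, which encodes the alpha-1 chain of type I, rose in lines 1, 2 and 3 from 12.6, 5.18 and 8.91 CPM to 412, 221 and 744 CPM (log2 fold change 5.68, 95% interval 4.28 to 7.08). The called collagen genes were Col1a1, Col1a2, Col3a1, Col5a1, Col5a2, Col8a1, Col12a1 and Col16a1. With the line as a block 7 were called (2.38% of all tested genes), since Col8a1 had an edgeR adjusted p of 0.0818 there. The count was 6 with limma-voom (5.35% of all tested genes) and 12 with DESeq2 (18.1%). The lowest log2 fold change of the 8 was 1.20, in Col5a1, above the highest upper bound of any ER gene, 0.80. These 8 were picked by the test. Of the 14 chains not called, Col4a5 was at 0.08 and Col5a3 at 0.25, and Col18a1 was the 1 chain with a negative value, -1.04 (unadjusted p = 0.0371, edgeR adjusted p = 0.146), lower in sgp53 in each line. The difference between the ER list and the collagen list was not tested as such.

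Genes that modify procollagen, a list of 21 with 20 tested, had a median between those of the ER genes and the collagens. Of the 20, edgeR called 7, of which 7 were higher and 0 lower, against 6.45% of all tested genes in either direction and 2.76% higher. With the line as a block it called 2, against 2.38% of all tested genes. The median log2 fold change was 0.53. Serpinh1, or HSP47, the collagen-specific chaperone, rose from 448, 366 and 393 CPM to 636, 696 and 619.9 CPM, a log2 fold change of 0.69 with an SE of 0.09 (edgeR adjusted p = 0.0138; 0.0506 with the line as a block). Pcolce, which enhances removal of the C-propeptide outside the cell, rose by 1.00 on the log2 scale (SE 0.16, edgeR adjusted p = 0.0254). P4ha2, a catalytic subunit of prolyl 4-hydroxylase, rose by 0.48 (SE 0.10, edgeR adjusted p = 0.0386; 0.0787 with the line as a block). The other called genes of the list were Plod1 and Plod3, lysyl hydroxylases, Lepre1, a prolyl 3-hydroxylase, and Glt25d1, a collagen galactosyltransferase. Plod2, the remaining lysyl hydroxylase, was not called but had the opposite sign, at -0.70 (SE 0.17, edgeR adjusted p = 0.0613), with no overlap and within-line values of -0.54, -0.38 and -1.25. Of this list 0 were called without sgp53 line 1 or sgNTC line 3, and 1 without sgNTC line 2. The count was 2 without sgp53 line 3, 3 without sgp53 line 2 and 4 without sgNTC line 1. Over all genes the calls, in the same order, were 146, 133, 293, 342, 374 and 700.

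No gene of the remaining ER lists passed the edgeR test. Over all tested genes the shares were 6.45% with edgeR, 29.0% at an unadjusted p under 0.05, 18.1% with DESeq2 and 5.35% with limma-voom. In lists of 18 to 25 genes, 0 edgeR calls per list is near that background. Among 25 further genes of ER folding and glycan quality control edgeR called 0 (8 at an unadjusted p under 0.05; DESeq2 5, limma-voom 0), with a median log2 fold change of 0.01. Ganab, a glucosidase subunit, and Txndc5, a disulfide isomerase, were at 0.11 and 0.22. Among 18 further genes of ER-associated degradation edgeR called 0 (4 at an unadjusted p under 0.05; DESeq2 0, limma-voom 0), with the ATPase Vcp at -0.02. Of 23 further genes of COPII export and Golgi return 22 were tested and edgeR called 0 (7 at an unadjusted p under 0.05; DESeq2 3, limma-voom 0), with the COPI subunits Copa at -0.26 and Copg1 at -0.08. Of 19 genes of stress signalling downstream of the sensors 18 were tested and edgeR called 0 (4 at an unadjusted p under 0.05; DESeq2 1, limma-voom 0). In that list the translationally induced factor Atf4 was at 0.26 (SE 0.07, edgeR adjusted p = 0.0822) and the protease Mbtps1, which cleaves ATF6, at 0.10.

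Within the lines the ER genes were not all ordered alike: Hspa5 and Sdf2l1 differed from Col1a1 and Col1a2, while Ppib and Dnajb9 had their order. The log2 difference between sgp53 and sgNTC was 5.02, 5.40 and 6.37 for Col1a1 and 3.56, 4.83 and 6.56 for Col1a2 in lines 1, 2 and 3, the largest in line 3. For Hspa5 it was 0.35, 0.70 and -0.34, and for Sdf2l1 -0.13, 0.46 and -1.03, the lowest in line 3. For the procollagen helper Ppib it was 0.10, 0.19 and 0.25, and for Crtap 0.19, -0.09 and 0.68, the largest in line 3. The remaining helper, Fkbp10, had 0.54, 0.30 and 0.34. Dnajb9, a partner of BiP and no procollagen helper, had -0.42, -0.28 and 0.24. A shared order over 3 lines is easily met and was not tested. The summed level of the 22 collagen chains was 1935, 947 and 1355 CPM in sgNTC and 3161, 2800.5 and 5122 CPM in sgp53. The summed level of the 9 chaperones and co-chaperones was 2716, 2545 and 2948 CPM in sgNTC and 3225, 3577 and 2656 CPM in sgp53. The line of the highest collagen in sgp53 was the line in which this sum was lower in sgp53 than in sgNTC, nearly all of it through Hspa5 and Hsp90b1. The other 7 chaperones summed to 788, 704 and 802 CPM in sgNTC and 915, 888 and 798 CPM in sgp53, about level in line 3. In that line 4 of the 9 had a positive difference (Hyou1 0.11, Dnajc3 0.06, Dnajb9 0.24 and Dnajb11 0.0010). The sgp53 library of line 3 is also the one with the high Rn45s, Thy1, Pdgfra and Col6a3. With 3 lines no correlation was computed.

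**Figure D3:**
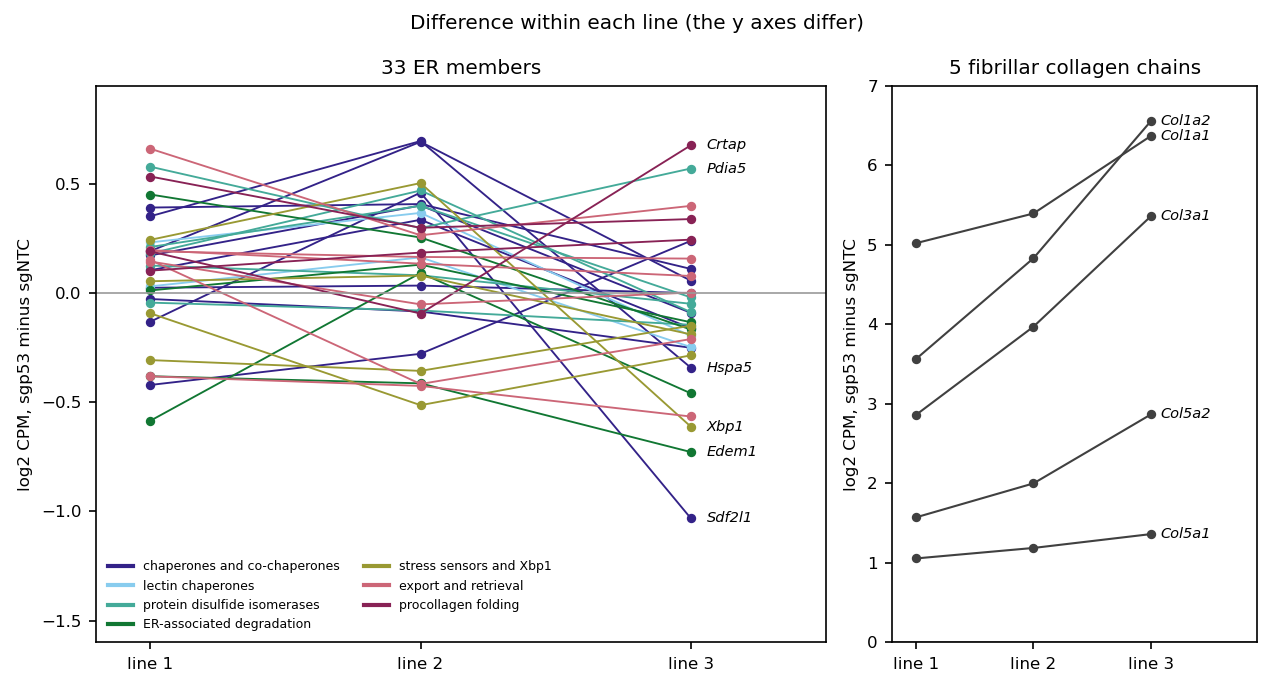
Log2 CPM of sgp53 minus sgNTC (y axis) in lines 1, 2 and 3 (x axis) for the 33 ER genes, coloured by role (left), and for 5 fibrillar collagen chains (right, on another scale); each point is 1 pair of libraries, thin lines join the points of 1 gene, and the lines of cells have no order. In line 3 Hspa5, Xbp1 and Sdf2l1 lie at -0.34, -0.61 and -1.03 and Crtap at 0.68, while Col1a1 lies at 6.37.

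The sign change in line 3 was seen in 12 of the 33 genes. Of all 33, 24 were higher in sgp53 in line 1, 23 in line 2 and 12 in line 3, and the median difference was 0.15, 0.16 and -0.13. In 12 of the 33 the sgp53 library was higher in lines 1 and 2 and lower in line 3, a pattern seen in 7.40% of all tested genes; 1 of the 33, Dnajb9, had the opposite pattern. The 12 were spread over the chaperones (3), the lectins (2), the disulfide isomerases (3), the degradation genes (2) and the sensors with Xbp1 (2). None was among the 6 export genes or the 3 procollagen helpers of the 33. Outside the 33 the pattern was in 5 of 25 other ER folding genes, 4 of 22 other COPII and Golgi return genes and 3 of 18 stress signalling genes. It was in 1 of 18 other degradation genes, 0 of 20 procollagen modification genes and 1 of 22 collagen chains. Without line 3 the median log2 fold change of the 33 was 0.15, and 24 of the 33 were positive; edgeR then called 0 of them and 19 of all genes. This pattern was noticed in the data and rests on 1 pair of libraries, so it has no test.

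Members with the ERSE in their promoter window were then compared with the others, a split chosen after the values were seen. Of the 8, 5 were higher in sgp53 in lines 1 and 2 and lower in line 3 (Hspa5, Hsp90b1, Calr, Canx and Pdia6), against 6 of the 20 members whose window lacked it. The 20 include Herpud1 and Dnajb11, which hold ERSE-II, and Herpud1 is among the 6. Hyou1, Fkbp10, Kdelr2, Manf and Atf6 had no window and are in neither set, though Manf showed the pattern. The median difference of the 8 was 0.18, 0.39 and -0.22 in lines 1, 2 and 3, and that of the 20 was 0.12, 0.11 and -0.09. Sdf2l1 and Xbp1, with values of -1.03 and -0.61 in line 3, had no ERSE in the window. Among 10 other tested genes with the element, 1 showed the pattern, and their medians were -0.14, 0.16 and 0.01. None of the 8 was called by edgeR, DESeq2 or limma-voom, and 0 had an unadjusted p under 0.05.

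**Figure D4:**
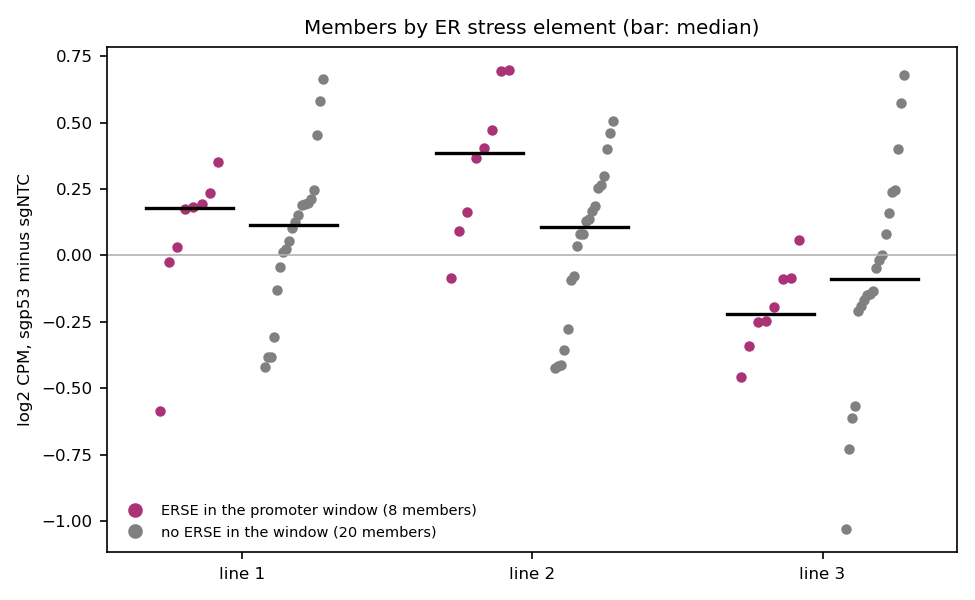
Log2 CPM of sgp53 minus sgNTC (y axis) in each line (x axis) for the 8 members with an ERSE in the promoter window and the 20 members without one; each point is 1 gene and each bar a median over genes, which are not replicates. The medians of the 8 are 0.18, 0.39 and -0.22, and in line 3 their points lie between -0.46 and 0.06.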

How the data were processed

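The deposited table holds raw read counts per gene symbol, 1 column per library, which the authors did not normalize. CASAVA 1.8, STAR, DESeq2 and mm10 appear in the submitters' processing notes, without roles. Per the labels' protocols a stranded TruSeq kit was used; whether counting used strand, the counter and the annotation are unknown here, so reads of overlapping genes cannot be told apart. No library repeated another within its group (chi-square per degree of freedom 21.8 to 58.0).

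The main test was edgeR's quasi-likelihood test (version 4.0.16 under R 4.3.3, TMM scaling, filterByExpr, Benjamini-Hochberg over 13044 genes, called at an adjusted p under 0.05), with 4 residual degrees of freedom. The test and the intervals also use a spread that edgeR shares across genes, which adds prior degrees of freedom to these 4. Each SE is the absolute log2 fold change divided by the root of F. Gene levels are CPM on TMM-scaled totals of the tested genes (of all genes for list and marker sums); within-line differences use log2 CPM with a prior count of 2. Alternatives were the line as a block, RLE scaling, no filter, DESeq2 1.42.0, limma-voom (limma 3.58.1), and each library or line left out. Same-numbered libraries are of the same line by their titles, which pairs them; their deviations from the group means correlated at 0.0893, 0.00177 and -0.0272. P-values measure the spread between lines, not stated to be separate embryos. Lines 2 and 3 share the first number of their column headers, line 1 has another, and what that number stands for is not stated. An exact permutation test of 3 against 3 cannot go below 0.1.

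The members, lists and motifs were chosen with earlier results of these data known. Named are all members, Trp53, Rn45s and, per other list, up to 3 called genes of smallest adjusted p (5 for collagens) or the 2 of highest level; other collagen and procollagen genes were named after their values were seen. Gene positions and promoters are RefSeq's on GRCm38.p6. Protein sequences were not used here. Some genes of the lists are not reported here.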

Additional observations from a re-analysis of the deposited data

Results flagged for a closer look

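For 6 members the difference between sgp53 and sgNTC in line 3 had the opposite sign to both other lines, with each of the 3 differences larger than the SD of the gene's log2 level over the sgNTC libraries. The line 3 difference minus the mean of lines 1 and 2 was -0.866 for Hspa5, -0.496 for Calr, -0.381 for Manf, -0.377 for Hsp90b1 and -0.256 for Eif2ak3. Dnajb9 went the other way, at 0.589. The share of all tested genes that meet this rule is not given here, so the count of 6 is no result about the ER genes. The SD is that of single libraries, while each difference is between 2 libraries, which spreads more. Each line has 1 pair of libraries, so the difference between lines was not tested.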

How the results depend on the processing

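The direction of Pdia5, Fkbp10 and Sec24d was the same in all 14 alternatives, and each was called under RLE scaling, no filter, limma-voom and DESeq2. The replicate block called 311 genes in all, 0 of the 33 ER genes and 2 procollagen modification genes, against 841, 3 and 7 without it. DESeq2 called 2367 genes in all, 9 of the 33 ER genes (Atf6, Edem1, Fkbp10, Hyou1, Pdia5, Ppib, Sec23a, Sec24d and Sec31a), 12 procollagen modification genes, 5 other ER folding genes, 3 other COPII and Golgi return genes and 1 stress signalling gene. RLE scaling called 1 other ER folding gene. With 1 library or 1 line left out, the count ranged from 19 to 700 for all genes, 0 to 8 for collagen chains (8 with all libraries), 0 to 4 for procollagen modification genes, 0 to 2 for the ER genes, 0 to 2 for other ER folding genes and 0 to 1 for other degradation genes. Without sgNTC line 1 the called ER genes were Atf6 and Sec24d, without sgp53 line 2 Fkbp10, and without sgp53 line 3 Edem1. The median of the 33 ER genes stayed between 0.02 and 0.15. All 33 ER genes passed the count filter, and the number of lines limits the precision, with an interval of -0.82 to 0.44 for Sdf2l1. The cause of the lost calls was not tested.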
